A study of Homo sapiens and Mus musculus with 20 samples.

Results

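The 10 genes described here encode 6 matrix metalloproteinases (MMP1, MMP2, MMP3, MMP10, MMP11 and MMP14) and the 4 tissue inhibitors of metalloproteinases (TIMP1, TIMP2, TIMP3 and TIMP4). They were chosen by symbol, with earlier results of these data known. They were followed in IMR90, fibroblasts from human fetal lung that are grown as a line, of wild-type genotype. Of the 10, 9 were among the 17554 genes listed in at least 1 of the 3 IMR90 experiments, and 8 were listed in all 3. MMP11 was listed in none, and MMP10 only in the MS-275 experiment. Transcripts were measured by bulk RNA sequencing in 12 IMR90 libraries, 2 in each of 6 groups. A485, which blocks the acetyltransferase activity of p300, was compared with the untreated group Control2. MS-275, which blocks class I histone deacetylases, was compared with the untreated group Control3, and pyruvate, the glycolysis product that lactate dehydrogenase converts to lactate, with the untreated group Control6. Dose and duration are not in the labels of these libraries, and the study used the treatments to ask how histone lactylation relates to senescence. All groups are cultures of a single cell line, and no label says that the 2 libraries of a group came from separate cultures, so p-values measure only the spread between these libraries, which may be technical.

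Matrix metalloproteinases are zinc endopeptidases that are made as inactive precursors and cut the proteins of the extracellular matrix once a propeptide is removed. MMP1 is the interstitial collagenase of fibroblasts, MMP3, MMP10 and MMP11 are stromelysins, MMP2 is a gelatinase, and MMP14 is a membrane-bound protease that activates MMP2. TIMPs are small secreted proteins that bind the active site of MMPs, and TIMP2 also takes part in the activation of MMP2 by MMP14. Secreted MMPs are well-known components of the secretory phenotype of senescent fibroblasts.

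The values are normalised read counts per gene, that is, reads divided by a size factor of the library, and each experiment was normalised on its own, so levels are compared only within an experiment. The libraries held between 24179065 and 46971227 reads, and mitochondrial transcripts took at most 6.90% of the normalised counts. Their share was 4.09% and 5.34% in Control2 against 5.46% and 6.90% with A485, and 6.69% and 6.68% in Control6 against 4.68% and 4.72% with pyruvate, so these groups did not overlap, while those of MS-275 and Control3 did. The part of this share in the differences was not tested. Replicates differed by more than sampling noise in all 6 groups, with a chi-square statistic per gene between 4.54 in the pyruvate group and 458 in the MS-275 group. All 10 fibroblast markers examined (COL1A1, COL1A2, COL3A1, VIM, PDGFRA, PDGFRB, THY1, DCN, LUM and FAP) were listed in each experiment, and their summed level lay between 430004 and 1530960 in every library. Of 8 epithelial, 5 endothelial and 6 immune markers, at most 4, 3 and 2 were listed in an experiment. Their summed levels reached at most 3595, 1469 and 46.3 in a library, and the pan-leukocyte marker PTPRC and the endothelial markers PECAM1 and CDH5 were not listed in any of them. In bulk samples such as these, fewer expressing cells and less RNA per cell cannot be told apart.

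In the human genome (hg38, GENCODE v44) MMP10, MMP1 and MMP3 are adjacent protein-coding genes on the minus strand of chromosome 11, at chr11:102770502-102780628, chr11:102789401-102798160 and chr11:102835801-102843609. They lie in a cluster of 9 MMP genes that runs from MMP7 to MMP13. The other members are scattered: MMP2 at chr16:55389700-55506691, MMP14 at chr14:22836560-22849041, MMP11 at chr22:23768226-23784316, TIMP1 at chrX:47582408-47586789, TIMP2 at chr17:78852977-78925387, TIMP3 at chr22:32801705-32863041 and TIMP4 at chr3:12153068-12158912. TIMP1, TIMP3 and TIMP4 each lie inside a synapsin gene on the opposite strand (SYN1, SYN3 and SYN2), and MMP1 and MMP10 lie inside the pseudogene WTAPP1, also on the opposite strand. The strand setting of the counting is not given in the sources used here, so reads of such partners cannot be told apart. Where listed, the synapsin genes had at most 99.5 (SYN1), 13.5 (SYN3) and 26.9 (SYN2) normalised counts in a library, against at least 8508 for TIMP1 and 8584 for TIMP3. For TIMP4, with between 10.7 and 324 counts, a shared part would weigh more.

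The RefSeq promoter table (GRCh38.p14) held 6 of the 10 members. The 250 bases before the start site are shown for 3 of them whose windows end at the GENCODE gene boundary: MMP10, the promoter available from the chromosome 11 cluster, and TIMP3 and TIMP4, an abundant and a rare inhibitor. Capitals mark matches, on either strand, to the AP-1 motif TGANTCA, the TATA box TATAAA and the GC box GGGCGG. The MMP10 window is chr11:102780629-102780878 on the minus strand, the TIMP3 window chr22:32801455-32801704 on the plus strand and the TIMP4 window chr3:12158913-12159162 on the minus strand.
MMP10: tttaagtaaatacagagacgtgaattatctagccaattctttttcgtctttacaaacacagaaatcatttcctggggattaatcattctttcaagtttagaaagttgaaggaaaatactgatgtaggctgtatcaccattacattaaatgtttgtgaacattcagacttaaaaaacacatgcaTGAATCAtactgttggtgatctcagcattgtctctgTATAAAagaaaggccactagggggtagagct
TIMP3: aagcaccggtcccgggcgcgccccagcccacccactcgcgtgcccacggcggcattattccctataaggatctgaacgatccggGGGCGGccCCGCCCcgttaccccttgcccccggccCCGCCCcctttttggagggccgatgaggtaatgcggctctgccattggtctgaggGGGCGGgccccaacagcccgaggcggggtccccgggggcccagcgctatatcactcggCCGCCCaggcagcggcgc
TIMP4: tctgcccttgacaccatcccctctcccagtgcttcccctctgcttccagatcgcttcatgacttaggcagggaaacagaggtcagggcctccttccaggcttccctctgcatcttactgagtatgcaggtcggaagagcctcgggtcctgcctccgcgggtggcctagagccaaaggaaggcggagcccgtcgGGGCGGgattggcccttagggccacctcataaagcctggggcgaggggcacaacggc
The MMP10 window had a GC content of 34.4% and held 1 AP-1 match, between 67 and 61 bases before the start, and 1 TATA match, between 31 and 26 bases before it, and no GC box. TIMP3, at 72.4% GC, held 5 GC boxes, and TIMP4, at 62.8%, held 1. The other windows in the table held only GC boxes, with 3 for MMP11, 2 for TIMP1 and 1 for MMP14. Over 35116 promoters of the same length, 6.57% held the AP-1 motif, 10.7% the TATA box and 42.6% the GC box. No match overlapped another. A match describes letters in these windows and is not evidence of binding. MMP1, MMP2, MMP3 and TIMP2 were not in the table.

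To compare genes with each other, counts were divided by the length of the canonical transcript in kilobases (kb). TIMP1 had the highest level per kb in all 6 groups, from 11183 ± 169 per kb (SD, n = 2) in the pyruvate group to 50605 ± 10722 in the MS-275 group. TIMP2, TIMP3, MMP14 and MMP2 had mean levels between 2025 and 16081 per kb in every group. Both ranges span experiments that were normalised separately, so they describe the order within groups and not differences between experiments. In Control2, TIMP2 (13418 ± 4623), MMP14 (10329 ± 2239), MMP2 (8925 ± 5679), TIMP3 (6317 ± 2335) and MMP1 (6165 ± 4075) formed an order in which each neighbour's libraries overlapped with the next. MMP3 (177 ± 101) and TIMP4 (43.3 ± 15.6) were far below them. In Control6, whose 2 libraries lay close together, the order was TIMP1 (20517 ± 632), TIMP2 (16081 ± 10.7), TIMP3 (13709 ± 275.3), MMP14 (9777 ± 67.7), MMP1 (3695 ± 120) and MMP2 (3335 ± 51.1), with no overlap between neighbours among them, and only MMP3 (42.54 ± 19.0) and TIMP4 (27.4 ± 7.85) overlapped. MMP1 was the member that changed place most, falling from the sixth to the seventh of 8 in the A485 experiment, where its level overlapped with that of MMP3, and moving from the sixth to the second of 9 in the MS-275 experiment, behind TIMP1 alone.

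**Figure D1:**
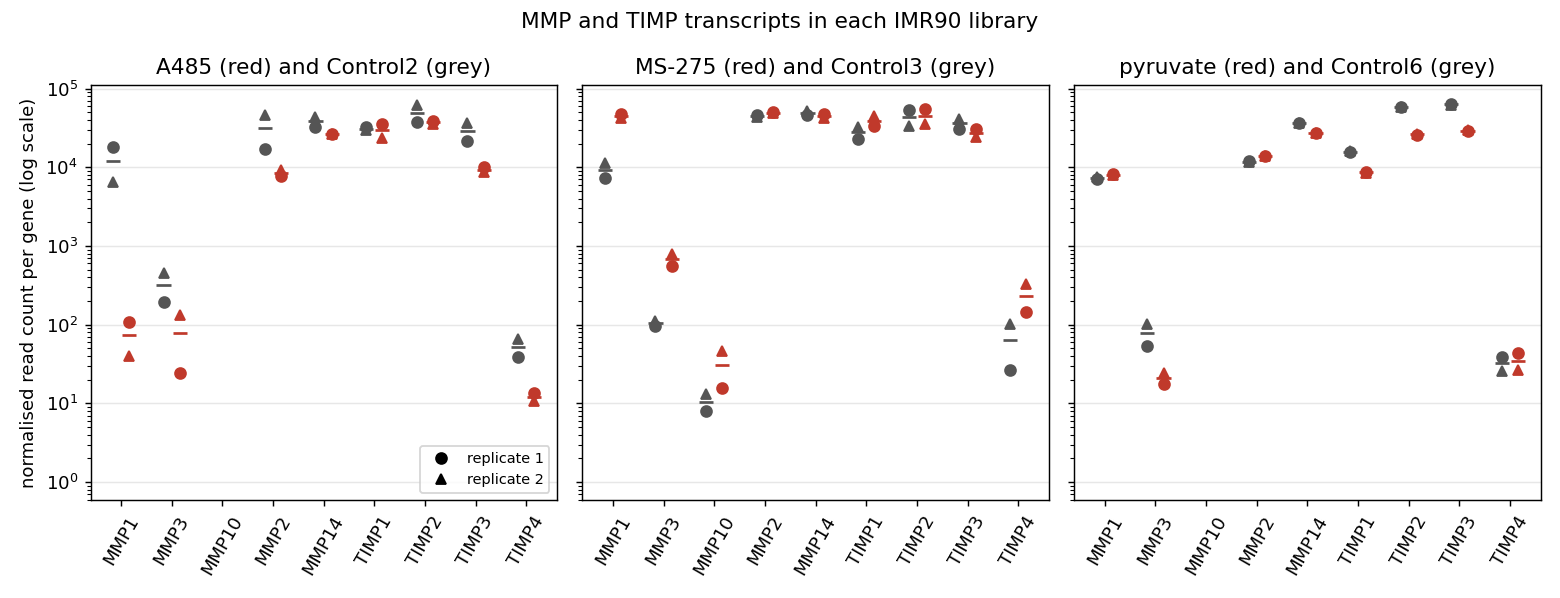
Normalised read count of each listed MMP and TIMP gene (log scale) in the 12 IMR90 libraries, 1 panel per experiment, with grey for the control group and red for the treated group, circles for replicate 1, triangles for replicate 2 and bars for group means. MMP1 lies at 6472 and 17830 in Control2 and at 40.1 and 107 with A485, while the MS-275 libraries, at 42622 and 46988, lie above their controls.

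A485 was used to ask what follows when p300 is inhibited. With A485 the MMP1 transcript was almost lost. MMP1 had 17830 and 6472 normalised counts in the Control2 libraries and 107 and 40.1 in the A485 libraries, so the groups were far apart although the controls differed from each other. The log2 fold change was -7.33 (SE 0.61, limma, adjusted p = 0.00263), a 161-fold lower level, on the log2(value + 1) scale. MMP1 made up 0.578% and 0.205% of the summed MMP level per kb with A485, against 39.7% and 11.6% in the controls. Of the 8 members tested, 2 were called lower and 0 higher, where a call needs a log2 fold change beyond 1 in size and an adjusted p under 0.05. Among all 16084 genes tested 7.06% were called lower and 3.31% higher, so 10.4% were called in either direction. When libraries were instead scaled to equal totals, the median of all genes moved from 0.01 to 0.40 and the split from 532 higher and 1135 lower to 1672 higher and 915 lower, and with quantile normalisation, which moved the median to 0.12, it became 751 higher and 1011 lower. MMP1 and TIMP3 remained called under both scalings, and MMP2 was called as well at equal totals.

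TIMP3, the inhibitor that binds to the matrix, was the other member called. It had 21449 and 36629 counts in Control2 and 10031 and 8584 with A485, with no overlap. The difference was -1.59 (SE 0.28, limma, adjusted p = 0.0217), and relative to the median of all genes it was -1.60 as deposited, -1.60 at equal totals and -1.21 after quantile normalisation. The call did not survive the removal of A485 replicate 1 (limma, adjusted p = 0.161), A485 replicate 2 (0.167) or Control2 replicate 2 (0.0737). MMP1 stayed called whichever library was left out, with an adjusted p of at most 0.0465.

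The gelatinase MMP2 had 17252 and 45472 counts in Control2 and 7772 and 9242 with A485. Its controls were further apart than those of any other abundant member but MMP1, and they lay in the opposite order. The difference of -1.72 (SE 0.44) had an adjusted p of 0.0558 in limma and was not called, whereas edgeR (adjusted p = 0.0436) and DESeq2 (0.000133) on the recovered reads called it. Limma called it at equal totals (-1.33, adjusted p = 0.0413) but not after quantile normalisation (-1.23, 0.0672). Limma also called it with replicate number as a block (0.00415) and in a fit shared by all 12 libraries (0.0119). Without Control2 replicate 1 it was -2.42 and was called in limma (adjusted p = 0.0287), and without Control2 replicate 2 it was -1.03. MMP3 had 192 and 452 counts in the controls and 24.4 and 131 with A485, a difference of -2.35 (SE 0.84, limma, adjusted p = 0.123), which DESeq2 called (0.0361) and edgeR did not. It moved from -1.16 without A485 replicate 1 to -3.54 without A485 replicate 2. Both A485 libraries were below both controls for each of these genes.

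TIMP4, the inhibitor with the most restricted tissue expression, had 38.5 and 64.9 counts in Control2 and 13.5 and 10.7 with A485. The groups did not overlap, and the difference of -1.97 (SE 0.58, limma, adjusted p = 0.0777) was not called. MMP14 had 32368 and 44088 counts in the controls and 26340 and 26609 with A485, a difference of -0.51 (SE 0.22, adjusted p = 0.187) that turned to 0.19 after quantile normalisation. TIMP2 (37064 and 60943 against 38926 and 35457) and TIMP1 (32412 and 29448 against 35006 and 23826) overlapped between the groups. Their differences were -0.36 (95% interval -1.06 to 0.35) and -0.10 (-0.70 to 0.50), and both turned positive at equal totals and after quantile normalisation. In all, 6 of the 8 members were lower in both A485 libraries than in both controls and 0 were higher, where 30.7% of all genes were lower and 30.4% higher in this sense. The median difference of the 8 members was -1.66, against 0.01 over all genes.

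The fibroblast markers were also lower with A485, whereas TIMP1 and TIMP2 overlapped between the groups. Of the 10 fibroblast markers, 9 were called lower and 0 higher with A485 (7.06% and 3.31% over all genes). Their summed level was 1368480 and 1530960 in Control2 and 430004 and 503673 with A485. Their part in the MMP and TIMP differences was not tested. FAP, a cell-surface protease of activated fibroblasts, had 2183 and 5633 counts against 118 and 151 (-4.71, SE 0.45, limma, adjusted p = 0.00377). DCN, the collagen-binding proteoglycan decorin, had a difference of -4.50 (SE 0.21, adjusted p = 0.000888).

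**Figure D2:**
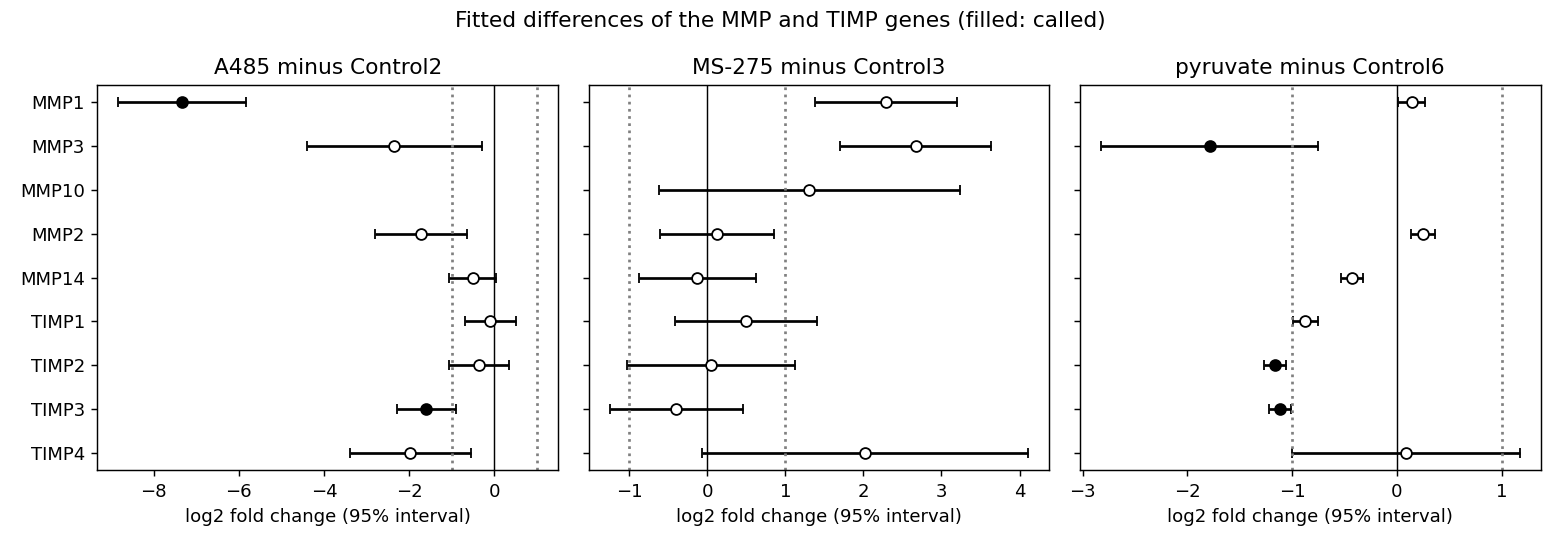
Log2 fold change (treated minus control, log2(value + 1) scale) of each tested MMP and TIMP gene with its 95% interval from limma, n = 2 libraries per group, filled where called and with dotted lines at -1 and 1. The called genes are MMP1 and TIMP3 with A485 and MMP3, TIMP2 and TIMP3 with pyruvate, none is called with MS-275, and the directions of MMP1, MMP14 and TIMP1 with pyruvate turn when the length and GC trend is removed, as does that of TIMP1 with A485.

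MS-275 was used to ask what follows when class I histone deacetylases are inhibited. No member was called, and neither was any of the 15883 genes tested (0% in either direction) by limma, although 1730 genes (10.9%) had an unadjusted p under 0.05. Within each replicate number, however, MMP1, MMP3 and TIMP4 were each more than 1 log2 unit higher with MS-275 than in the control of the same number. Over all genes 6.81% were that much higher in both numbers and 4.85% that much lower. The labels do not say that libraries of the same number share a culture, so these differences are given as a description.

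MMP1 had 7301 and 11384 counts in Control3 and 46988 and 42622 with MS-275, so its level was well above both controls in both libraries. The differences were 2.69 and 1.90 within numbers 1 and 2. The fitted difference of 2.30 (SE 0.35, 95% interval 1.39 to 3.20) had an adjusted p of 0.175 in limma. MMP1 made up 46.4% and 45.9% of the summed MMP level per kb with MS-275, against 12.5% and 17.9% in Control3. Of the other listed genes of the chromosome 11 cluster, MMP3 and MMP10 were also higher in both MS-275 libraries, while MMP8 overlapped with its controls. MMP3 had 97.1 and 110 counts in the controls and 557 and 788 with MS-275, with differences of 2.51 and 2.83 within numbers and a fitted difference of 2.67 (SE 0.37, limma, adjusted p = 0.167). MMP10 was rare, with 7.92 and 13.1 counts against 15.5 and 45.8, and its differences of 0.89 and 1.73 did not pass 1 in both numbers (fitted 1.31, 95% interval -0.62 to 3.24).

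TIMP4 had 26.7 and 101 counts in Control3 and 143 and 324 with MS-275. The number 2 library was the higher in both groups, and the differences within numbers were 2.38 and 1.67 (fitted 2.02, SE 0.80, limma, adjusted p = 0.477). TIMP1 had 22966 and 32421 counts against 33085 and 44745, also higher in number 2, with differences of 0.53 and 0.46. TIMP2 differed by number and hardly by treatment, with 53709 and 32963 counts in the controls and 54175 and 34932 with MS-275 and a fitted difference of 0.05 (95% interval -1.02 to 1.12) that changed sign with the scaling.

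TIMP3 had 31024 and 41389 counts in Control3 and 30634 and 24151 with MS-275, which gave -0.02 within number 1 and -0.78 within number 2. MMP14 (46557 and 51421 against 47735 and 41897) overlapped between the groups, and MMP2 (46750 and 44011 against 50538 and 48285) differed by 0.12 (95% interval -0.61 to 0.85), a sign that turned at equal totals and after quantile normalisation. Counted over groups, 6 of the 9 members were higher in both MS-275 libraries than in both controls and 1, TIMP3, was lower, where 19.5% of all genes were higher and 19.3% lower. The fibroblast markers summed to 1279220 and 783239 in Control3 and to 1145860 and 645740 with MS-275, so they differed by number more than by treatment.

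**Figure D3:**
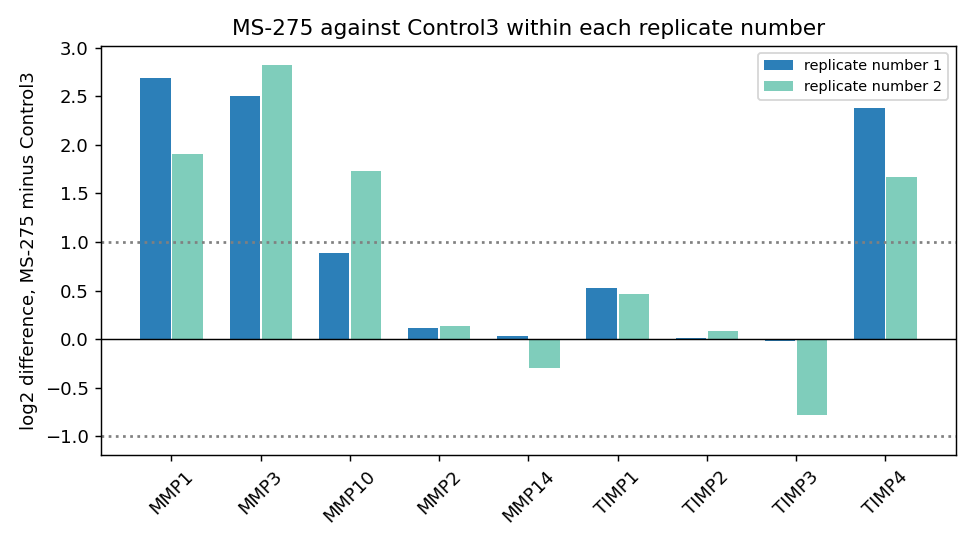
Difference in log2(value + 1) between the MS-275 and the Control3 library of the same replicate number for the 9 listed MMP and TIMP genes, with dotted lines at -1 and 1. The bars of MMP1 (2.69 and 1.90), MMP3 (2.51 and 2.83) and TIMP4 (2.38 and 1.67) pass 1 in both numbers.

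Pyruvate was given to raise the substrate of lactate production. The paper describes its pyruvate treatment as one of IMR90 cells that were already senescent, while the titles of these libraries name no cell state. Here a large share of the transcriptome was called, 31% of 12013 genes higher and 23.1% lower, and 54.1% in either direction, and 80.9% had an adjusted p under 0.05, so a called member is no exception. Of the 8 members tested, 3 were called, all lower: the inhibitors TIMP2 and TIMP3 and the stromelysin MMP3. At equal totals, which moved the median of all genes to 0.30, the split of calls over all genes changed from 3726 higher and 2777 lower to 4402 higher and 1741 lower.

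TIMP2 had 58699 and 58754 counts in Control6 and 25985 and 26586 with pyruvate. The libraries of each group were close and the groups were far apart, with a difference of -1.16 (SE 0.05, limma, adjusted p = 1.92e-09). TIMP3 had 63917 and 62127 counts against 28906 and 29345, a difference of -1.11 (SE 0.05, adjusted p = 2.6e-09). At equal totals TIMP2 and TIMP3 were at -0.85 and -0.80, and after quantile normalisation, which moved the median of all genes to -0.17, at -0.61 and -0.54, so that neither passed the fold limit, although both kept an adjusted p under 0.05. Relative to the median of all genes they were at -1.15 and -1.10 at equal totals and at -0.43 and -0.36 after quantile normalisation. MMP3 had 53.0 and 102 counts in the controls and 17.7 and 24.0 with pyruvate, without overlap. Its difference of -1.79 (SE 0.47, limma, adjusted p = 0.00435) was called under both scalings, and lost its call without Control6 replicate 2 (-1.32, adjusted p = 0.0560).

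TIMP1 had 15434 and 16121 counts in Control6 and 8691 and 8508 with pyruvate. The difference of -0.88 (SE 0.05, limma, adjusted p = 4.71e-08) did not reach the fold limit. MMP14 had 36362 and 36008 counts against 26935 and 26831 (-0.43, SE 0.05, adjusted p = 6.12e-06). The collagenase and the gelatinase lay on the other side, with small differences. MMP2 had 11847 and 11594 counts in the controls and 13769 and 14052 with pyruvate (0.25, SE 0.05, adjusted p = 0.00109), and MMP1 had 7116 and 7450 against 8135 and 7941 (0.14, SE 0.06, adjusted p = 0.0408). TIMP4, with 39.3 and 26.0 counts against 43.3 and 26.8, overlapped (0.09, 95% interval -0.997 to 1.17). By groups, 5 members were lower in both pyruvate libraries and 2 higher, where 45.3% and 45.2% of all genes were.

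These differences changed when a trend on the length and base composition of the transcripts was removed. Length and GC content were removed together, so their parts cannot be told apart. The GC content of the members' canonical transcripts ran from 43.3% for MMP1 and 44.95% for MMP3 to 57.5% for TIMP1 and 58.9% for MMP14. When a smooth trend on transcript length and GC content was removed from each library, the genes called over all genes went from 6503 to 3457, the sign turned for MMP1 (from 0.14 to -0.81), TIMP1 (from -0.88 to 0.17) and MMP14 (from -0.43 to 0.34), each with an adjusted p under 0.05 on both sides, and TIMP2 (-0.62) lost its call. TIMP3 (-1.30) and MMP3 (-2.34) kept theirs, and MMP2 went from 0.25 to 0.93. The directions of MMP1, TIMP1 and MMP14 with pyruvate thus depend on this step, while MMP3, TIMP2 and TIMP3 were lower and MMP2 higher with and without it.

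**Figure D4:**
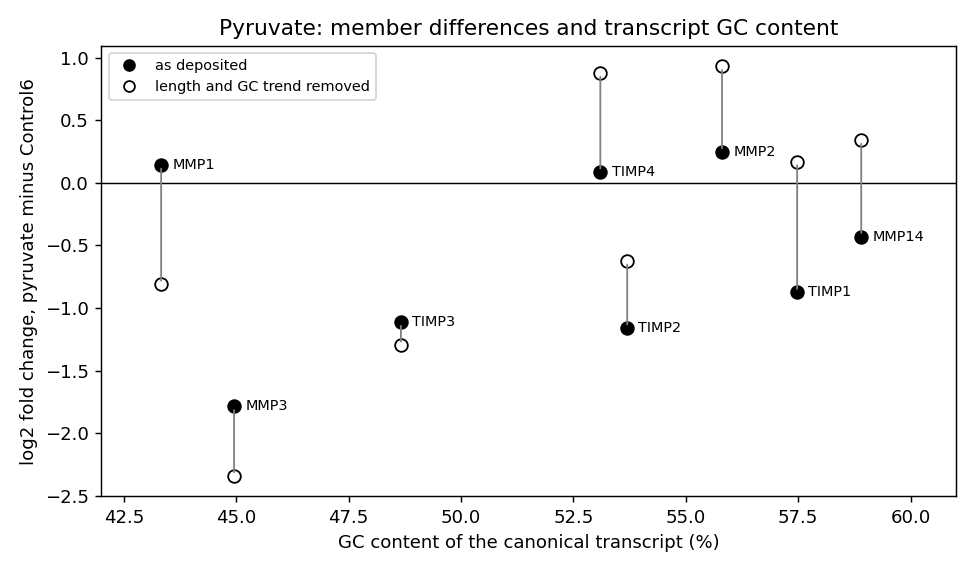
Log2 fold change of the 8 tested members with pyruvate (y axis) against the GC content of their canonical transcripts in percent (x axis), as deposited (filled) and after a trend on length and GC content was removed from each library (open), joined by a line. MMP1, TIMP1 and MMP14 cross 0, and MMP3, TIMP2, TIMP3, MMP2 and TIMP4 do not.

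The balance of proteases to inhibitors can be read within a library, where the size factor cancels. The summed MMP level per kb divided by the summed TIMP level per kb was 0.400 and 0.451 in Control2 and 0.161 and 0.233 with A485. It was 0.577 and 0.535 in Control3 and 0.796 and 0.643 with MS-275, and 0.336 and 0.333 in Control6 and 0.620 and 0.618 with pyruvate. The groups did not overlap in any experiment, with the treated libraries lower for A485 and higher for MS-275 and pyruvate. After the length and GC trend was removed, the same order held, with 0.571 and 0.565 for pyruvate against 0.362 and 0.363 for Control6. With MS-275, MMP1 made up 46.4% and 45.9% of the MMP sum, against 12.5% and 17.9% in Control3. MMP2 and MMP14 differed by only 0.12 and -0.13, so a rise shared by the MMPs is not shown. As deposited, the MMP sum with pyruvate was lower, at 15333 and 15290 against 16836 and 16864 in Control6. The TIMP sum was 24742 and 24749 against 50081 and 50589. With the trend removed, MMP2 (0.93) and MMP14 (0.34) were higher with pyruvate, and MMP1 (-0.81) and MMP3 (-2.34) lower. Among the inhibitors, TIMP1 (0.17) and TIMP4 (0.88) were then higher, and TIMP2 (-0.62) and TIMP3 (-1.30) lower. The sums are given as deposited only, and their differences may depend on that step. These sums were made after the members' values were seen, weigh transcripts and not proteins, and carry no test.

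The ratio of MMP1 to TIMP1 per kb spanned a wider range. It was 0.215 and 0.0858 in Control2 and 0.00119 and 0.000656 with A485, and 0.124 and 0.137 in Control3 and 0.554 and 0.372 with MS-275. With pyruvate it was 0.365 and 0.364 against 0.180 and 0.180 in Control6 as deposited, but 0.183 and 0.182 against 0.359 and 0.360 with the trend removed, so for pyruvate the order of this ratio turned.

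**Figure D5:**
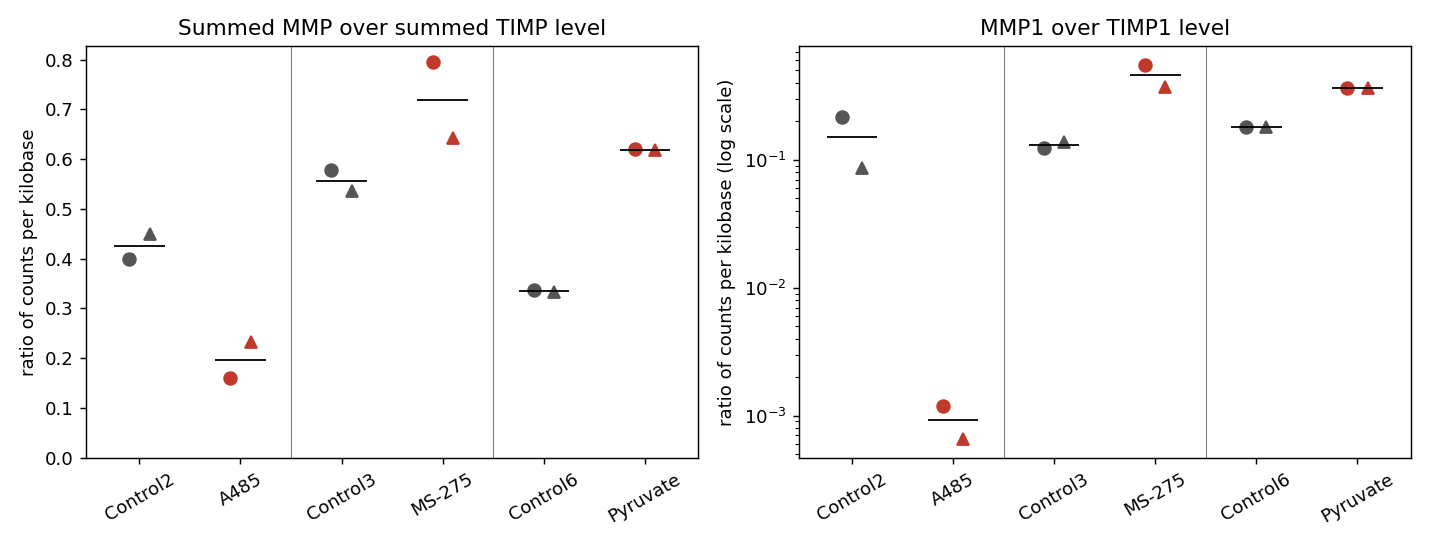
Ratio of the summed MMP to the summed TIMP level per kb (left, linear axis from 0) and of MMP1 to TIMP1 (right, log axis) in each of the 12 libraries as deposited, grey for controls and red for treated groups, circles for replicate 1, triangles for replicate 2 and lines for means. The A485 libraries lie below their controls and the MS-275 and pyruvate libraries above theirs, and the MMP1 to TIMP1 order for pyruvate turns when the length and GC trend is removed.

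Whether a member's difference from control varied between the experiments was tested by contrasts of the treatment effects, each against its own control. This used a limma fit over all 12 libraries and 11989 genes. Each treatment was in an experiment of its own, so a contrast cannot tell treatment from experiment. The fit also shares 1 spread per gene over groups of unlike spread. For MMP1 the SE was 0.72 in every contrast, against 0.61 (A485), 0.35 (MS-275) and 0.06 (pyruvate) in the separate fits. A485 and MS-275 differed for 3 of 8 members, all in the direction of A485 being lower, where 7.08% of all genes were called in that direction, 2.87% in the other and 9.95% in all: MMP1 by -9.63 (SE 0.72, limma, adjusted p = 8.04e-05), MMP3 by -5.02 (SE 1.01, adjusted p = 0.0132) and TIMP4 by -4.00 (SE 0.92, adjusted p = 0.0246). These 3 genes were lower in both A485 libraries and higher in both MS-275 libraries than in their own controls. The MMP3 contrast lost its call without Control2 replicate 2 (adjusted p = 0.0584). That of TIMP4 lost its call without A485 replicate 1 (0.0679), A485 replicate 2 (0.0792), Control2 replicate 2 (0.0913) or MS-275 replicate 2 (0.0659).

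A485 and pyruvate differed for MMP1 (-7.48, SE 0.72, limma, adjusted p = 7.89e-05) and MMP2 (-1.97, SE 0.51, adjusted p = 0.0110), both lower with A485, where 28.3% of all genes were called in that direction, 17.6% in the other and 46% in all. MS-275 and pyruvate differed for MMP3 (4.45, SE 1.01, adjusted p = 0.00633), TIMP1 (1.37, SE 0.36, adjusted p = 0.0120) and MMP1 (2.15, SE 0.72, adjusted p = 0.0345), all higher with MS-275, where 17.9% of all genes were called in that direction, 25.7% in the other and 43.6% in all. The TIMP1 contrast was at 0.40 (adjusted p = 0.284) once the length and GC trend was removed, and the MMP1 contrast lost its call when any library of MS-275, pyruvate or Control6, or Control3 replicate 1, was left out (adjusted p from 0.0562 to 0.0895). At equal totals neither was called, with 0.92 (adjusted p = 0.0750) for TIMP1 and 1.699 (adjusted p = 0.101) for MMP1.

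How the members varied together was described over the 12 libraries after each experiment was centred on its own mean. The points share libraries and experiments, and no test is attached. All r values here use the values as deposited and were not recomputed with the length and GC trend removed. MMP14 and TIMP3 were the most alike pair of members, with r = 0.98, followed by MMP1 with MMP2 (0.74), MMP14 with TIMP2 (0.74) and MMP1 with TIMP4 (0.74). The likeness of MMP14 and TIMP3 may depend on that trend. Once it was removed, their pyruvate differences had opposite signs, at 0.34 for MMP14 and -1.30 for TIMP3. MMP1 and MMP3, neighbours on chromosome 11, had r = 0.59. Outside the family, the genes most like MMP1 among 11981 were ERRFI1 (0.98), a feedback inhibitor of the epidermal growth factor receptor, and PLAUR (0.98), the receptor of urokinase. With the trend removed, the pyruvate differences of MMP1 and PLAUR also had opposite signs, at -0.81 and 1.20. The genes most like MMP3 were ADRA1B, an adrenergic receptor, and LINC00886 (0.98 and 0.95), and those most like MMP14 were EEPD1 and MAN1C1 (0.98 and 0.95). For the inhibitors the nearest genes were FBXO46 and AFMID for TIMP1 (both 0.97), SHANK3 and TRIM62 for TIMP2 (both 0.96), IRF2BPL and ASS1 for TIMP3 (0.98 and 0.97) and RPL23AP7 and SERPINB2 for TIMP4 (0.95 and 0.94).

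Of the 17 other MMP genes, 7 were listed with A485, 7 with MS-275 and 4 with pyruvate. With A485 none of the 7 was called (10.4% over all genes), and their median difference was 0.58, against -1.66 for the members. Of the 7, 3 were higher and 1 lower in both A485 libraries than in both controls, where 30.4% and 30.7% of all genes were. The lower gene, MMP16, had 624 and 607 counts in Control2 and 353 and 300 with A485 (-0.92, SE 0.24, limma, adjusted p = 0.0580). MMP19, which cuts proteins of the basement membrane, had 891 and 1606 counts in Control2 and 1680 and 1912 with A485 (0.58, SE 0.30, limma, adjusted p = 0.252). With MS-275 none was called either. MMP15, a membrane-type relative of MMP14, had 265 and 304 counts in Control3 and 84.2 and 116 with MS-275 (-1.52, SE 0.38, adjusted p = 0.297), and MMP23B had 9.90 and 48.5 counts in the controls and was at 0 in both MS-275 libraries. MMP8, the fourth gene of the chromosome 11 cluster to be listed, had 13.9 and 6.06 counts against 15.5 and 12.95. With pyruvate, MMP15 fell (402 and 341 counts against 54.1 and 49.9, -2.81, SE 0.23, limma, adjusted p = 4.2e-07), as did MMP24, another membrane-type MMP (-2.22, SE 0.36, adjusted p = 0.000148), and MMP17 rose (62.9 and 52.1 counts against 119 and 149, 1.20, SE 0.29, adjusted p = 0.00263). These 3 calls held with the length and GC trend removed (-1.84, -1.49 and 2.62).

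Many MMP precursors are opened by plasmin, which urokinase produces. Of 16 genes for such activators and for further protease inhibitors, 6 were called lower and 0 higher with A485 (7.06% and 3.31% over all genes). PLAU, which encodes urokinase, had 19166 and 20903 counts in Control2 and 459 and 612 with A485 (-5.24, SE 0.20, limma, adjusted p = 0.000721). SERPINB2, an inhibitor of urokinase, had 498 and 651 counts against 16.01 and 29.4 (-4.65, SE 0.44, adjusted p = 0.00372). With MS-275 none was called. TFPI2, a matrix-bound protease inhibitor, had 976 and 1140 counts in Control3 and 9222 and 9753 with MS-275 (3.17, SE 0.30, adjusted p = 0.142), and CTSK, the collagen-cleaving cathepsin K, had 1374 and 2919 against 340 and 506 (-2.27, SE 0.50, adjusted p = 0.257). With pyruvate 2 were called higher and 6 lower (31% and 23.1% over all genes), and 3 and 6 with the trend removed. Here TFPI2 had 4530 and 4770 counts in Control6 and 593 and 702 with pyruvate (-2.85, SE 0.10, limma, adjusted p = 5.44e-10), and CTSK had 3607 and 3705 against 555 and 564 (-2.70, SE 0.08, adjusted p = 2.95e-10).

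AP-1 and ETS factors are known to bind MMP promoters. Among 12 of their genes, 1 was called higher and 5 lower with A485 (3.31% and 7.06% over all genes). FOSL1 had 4968 and 5832 counts in Control2 and 370 and 698 with A485 (-3.40, SE 0.32, limma, adjusted p = 0.00358), and ETV4, an ETS factor, had a difference of -2.61 (SE 0.35, adjusted p = 0.00923). None of the 12 was called with MS-275, where ETS2 (0.84, SE 0.34) and ETS1 (0.57, SE 0.30) had the smallest p. With pyruvate 1 of 10 was called higher and 3 lower (31% and 23.1% over all genes), and with the length and GC trend removed 1 and 1. ETS1 at 2.40 (SE 0.09, limma, adjusted p = 8.14e-10) and JUN at -1.24 (SE 0.06, adjusted p = 8.38e-09) were among those called, and both fell under the fold limit with the trend removed, at 0.82 and -0.48.

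ADAM and ADAMTS proteases are relatives of the MMPs that shed membrane proteins or cut proteoglycans and procollagen. Of 21 listed with A485, 4 were called lower and 0 higher (7.06% and 3.31% over all genes). ADAMTS1, which cleaves versican, had 31867 and 19174 counts in Control2 and 705 and 768 with A485 (-5.07, SE 0.26, limma, adjusted p = 0.000989), and ADAM12 had 781 and 717 against 28.7 and 108 (-3.72, SE 0.61, adjusted p = 0.0177). With MS-275 0 of 21 were called, and ADAM33 (1.43, SE 0.40) and ADAMTS8 (-1.56, SE 0.47) had the smallest p. With pyruvate 3 of 16 were called higher and 4 lower (31% and 23.1% over all genes), and 2 and 2 with the trend removed. ADAM15 (-2.74, SE 0.08, limma, adjusted p = 2.93e-10) and ADAMTS5, an aggrecanase (-1.84, SE 0.22, adjusted p = 1.17e-05), kept their calls.

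The proteins that MMPs cut were followed through 23 genes for collagens, laminins, proteoglycans and other matrix components. With A485 16 were called lower and 0 higher, and all 23 were lower in both A485 libraries than in both controls. Over all genes 7.06% were called lower and 3.31% higher, and 30.7% were lower in both A485 libraries. LAMA4, a laminin chain, had 7156 and 13045 counts in Control2 and 302 and 260 with A485 (-5.10, SE 0.31, limma, adjusted p = 0.0012), and TNC, tenascin C, had a difference of -5.02 (SE 0.64, adjusted p = 0.00835). With MS-275 none was called. LUM, the proteoglycan lumican, which is also among the fibroblast markers, had a difference of 2.18 (SE 0.42, adjusted p = 0.234), and COL3A1, a chain of fibrillar collagen, of -1.41 (SE 0.40, adjusted p = 0.332). With pyruvate 8 of 22 were called higher and 0 lower (31% and 23.1% over all genes), and 6 and 1 with the length and GC trend removed. VCAN, versican, had 212 and 133 counts in Control6 and 1925 and 2064 with pyruvate (3.56, SE 0.19, limma, adjusted p = 1.07e-08), and BGN, biglycan, 283 and 222 against 2823 and 2844 (3.49, SE 0.12, adjusted p = 7.81e-10). With the trend removed VCAN was at 1.85 and BGN at 4.61, both still called.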

How the data were processed

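RNA was measured in 12 IMR90 libraries, 2 in each of 6 groups taken from the titles. The authors trimmed the reads with trim_galore (version 0.6.10), aligned them to hg38 with hisat2 (version 2.2.1) and samtools (version 1.7), counted them with featureCounts (version 2.0.6) and normalised them with DESeq2 (version 1.34.0). The deposited values are therefore a signal, that is, each count divided by the size factor of its library. The annotation and the strand setting are not given in the sources used here. Gene lists held 16683, 16417 and 12013 genes, and genes outside them were not analysed here. All values (100%) were whole multiples of 1 read within 0.05 reads, and the recovered reads of the A485 experiment were also tested with edgeR (version 4.0.16) and DESeq2 (version 1.42.0), which called 1664 and 2325 genes against 1667.

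Genes whose mean over 4 libraries was 10 or more were tested on log2(value + 1) with limma (version 3.58.1, eBayes with trend, R version 4.3.3), two-sided, and p-values were adjusted over all of them by Benjamini and Hochberg. This scale makes the changes of rare genes look smaller. With 2 libraries against 2, an exact permutation test cannot give a p below 0.333. Scripts were tested on simulated data. Transcript length and GC content were those of the canonical transcript in GENCODE v44, and were known for at least 98.8% of the genes listed. The members and the gene lists were chosen with earlier results of these data known. All members are named, and of each other list the 2 called genes with the largest change, or where none was called the 2 with the smallest p, while any of the other MMPs could be named. Nearest genes are the 2 with the highest Pearson r, and those of MMP2 are not reported here. Alternatives covered the pseudocount, the filter, the scaling, the length and GC trend, replicate numbers as a block, a fit shared by the experiments and the removal of single libraries. Mouse muscle libraries were not used here.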

Additional observations from a re-analysis of the deposited data

How the results depend on the processing

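With replicate number as a block, A485 called 4 members and MS-275 3 (MMP1, MMP3 and TIMP4, with 2183 genes in all), and with the length and GC trend removed as well 4 and 3 members, 2062 genes for MS-275 and 3505 for pyruvate. The contrasts of A485 and of pyruvate with MS-275 called 5 members each under the block. Libraries of equal number deviated together with a correlation of 0.32 (A485), 0.73 (MS-275) and 0.002 (pyruvate), over only 2 pairs each, and the labels do not say that a number marks a shared culture. A shared fit of all 12 libraries gave 487 genes and 1 member (MMP1) for MS-275 and cost MMP3 its call with pyruvate. Equal totals gave 2587 genes for A485, 1 member for pyruvate and 1 for the contrast of MS-275 with pyruvate. Quantile normalisation gave 1 member for pyruvate, DESeq2 gave 4 members for A485, the trend removal 3457 genes for pyruvate, and a mean of at least 50 gave 1 member for the contrast of A485 with MS-275. The cause was not tested, except that the last setting tests fewer genes. Leaving out 1 library gave 117 to 844 genes and 1 to 3 members for A485, 0 to 419 genes and 0 to 3 members for MS-275, and 2 to 5 members for the contrast of A485 with MS-275. Signs turned for MMP14 (0.19, quantile), TIMP1 (0.30 at equal totals, 0.56 quantile, 0.0915 trend removed, with or without the block) and TIMP2 (0.0380 and 0.45 at equal totals and quantile) with A485. They turned for MMP2 (-0.0196 and -0.13) and TIMP2 (-0.0946 and -0.23) with MS-275 at equal totals and quantile. With pyruvate they turned for MMP1 (-0.81), MMP14 (0.34) and TIMP1 (0.17) with the trend removed, with or without the block, and for MMP14 (0.00925) and TIMP4 (-0.17) under quantile. Contrasts turned for MMP14 (0.15, A485 against MS-275, and -0.15, MS-275 against pyruvate) and TIMP2 (0.13, A485 against MS-275) at equal totals. With the trend removed, a setting chosen after seeing the data, they turned for MMP3 (0.19, A485 against pyruvate) and MMP14 (-0.38, MS-275 against pyruvate). Leaving out 1 library turned TIMP1 (-0.37 to 0.18) and TIMP2 (-0.71 to 0.00339) with A485, TIMP2 (-0.30 to 0.40) with MS-275, TIMP4 (-0.25 to 0.42) with pyruvate, and the contrasts of A485 with pyruvate for MMP3 (-1.75 to 0.62) and MMP14 (-0.31 to 0.14). Depth limits MMP10, MMP3 and TIMP4, with as few as 7.92, 17.7 and 10.7 counts in a library. No count test was run for MS-275 and pyruvate.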

Other observations

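Cytokines, growth factors and receptors that are known to act on MMP genes were followed through 12 genes. With A485 1 was called higher and 2 lower (3.31% and 7.06% over all genes). LIF, a cytokine of the interleukin-6 family, had 4032 and 3673 counts in Control2 and 131 and 420 with A485 (-4.03, SE 0.52, limma, adjusted p = 0.00842), and PDGFRB, a receptor of platelet-derived growth factor that is also among the fibroblast markers, had 14289 and 17153 against 1756 and 1980 (-3.07, SE 0.18, adjusted p = 0.00117). With MS-275 none was called. EREG, the epidermal growth factor receptor ligand epiregulin, had 23.8 and 52.6 counts in Control3 and 210 and 473 with MS-275 (3.12, SE 0.64, adjusted p = 0.243), and TGFBR2 differed by 1.07 (SE 0.31, adjusted p = 0.348). With pyruvate 4 of 10 were called higher and 3 lower (31% and 23.1% over all genes), and 2 and 1 with the length and GC trend removed. IL1B had 28.5 and 30.4 counts in Control6 and 148 and 145 with pyruvate (2.28, SE 0.32, limma, adjusted p = 4.37e-05), and LIF had 5997 and 5716 against 1327 and 1383 (-2.11, SE 0.07, adjusted p = 5.66e-10). Both held with the trend removed, at 2.02 and -1.44.

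Of the fibroblast markers, 4 were called higher and 1 lower with pyruvate (31% and 23.1% over all genes), and 0 and 1 with the length and GC trend removed. FAP and LUM, at 2.26 (SE 0.17, limma, adjusted p = 2.64e-07) and 2.07 (SE 0.15, adjusted p = 1.2e-07), were at 0.66 and 0.80 then. With MS-275 none of the 10 was called, and FAP, with 6176 and 2915 counts in Control3 and 1200 and 453 with MS-275, was at -2.52 (SE 0.64, limma, adjusted p = 0.299).

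Of the epithelial markers, 1 of 4 was called higher and 2 lower with A485 (3.31% and 7.06% over all genes). The keratin KRT19 had 105 and 40.4 counts in Control2 and 1.69 and 7.13 with A485 (-3.82, SE 0.84, limma, adjusted p = 0.0377), and EPCAM, an epithelial adhesion molecule, had 64.2 and 47.7 against 208 and 177 (1.78, SE 0.39, adjusted p = 0.0367). With MS-275 none of 4 was called, with KRT19 at 1.83 (SE 0.58, adjusted p = 0.372) and KRT18 at -1.01 (SE 0.44, adjusted p = 0.535). With pyruvate neither KRT18 (-0.27, SE 0.09, limma, adjusted p = 0.0192) nor KRT8 (-0.10, SE 0.12, adjusted p = 0.477) passed the fold limit.

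Both endothelial markers tested with A485 were called lower (7.06% over all genes). The receptor TEK had 474 and 1175 counts in Control2 and 189 and 118 with A485 (-2.31, SE 0.49, limma, adjusted p = 0.0346), and VWF, von Willebrand factor, had 34.2 and 102 counts in the controls and was at 0 in both A485 libraries (adjusted p = 0.0117). With MS-275 none of 3 was called. The receptor KDR had 7.92 and 8.08 counts against 29.0 and 47.8 (2.09, SE 0.56, adjusted p = 0.312), and TEK was at -1.04 (SE 0.42, adjusted p = 0.490). With pyruvate TEK was called higher, with 317 and 254 counts in Control6 and 1435 and 1402 with pyruvate (2.32, SE 0.13, limma, adjusted p = 2.07e-08), and VWF lower, with 164 and 104 against 33.4 and 46.2 (-1.71, SE 0.35, adjusted p = 0.000832). Both calls held with the trend removed, at 1.38 and -1.21. Of the immune markers none was called. CD14 had 9.63 and 7.34 counts in Control2 and 23.6 and 24.9 with A485 (1.42, SE 0.61, limma, adjusted p = 0.181) and 0 and 18.2 in Control3 against 9.68 and 14.0 with MS-275. LYZ had 12.8 and 17.1 counts in Control2 and 9.27 and 21.4 with A485. No immune marker was tested with pyruvate. The part of these marker genes in the differences of the MMP and TIMP genes was not tested.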
